A study of Mus musculus with 7 samples.

Results

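The transcription factor genes Pax6, Rax, Six3, Six6, Lhx2, Sox2, Sox11, Meis1 and Meis2, which act in the eye field and in retinal progenitors, were followed for histone H3 lactylated at lysine 18 (H3K18La) in the mouse retina at 3 postnatal ages. Every peak in the deposited table whose assigned gene symbol was 1 of these 9 was taken, promoter, intronic and distal alike, which gave 83 of 108253 peaks and 9 of 25420 genes with a peak. Meis1 held 27 of them, Meis2 21, Six3 11, Rax, Lhx2 and Sox11 6 each, Pax6 3, Six6 2 and Sox2 1. Retinas came from C57Bl/6J mice at postnatal day 4 (P4, 2 libraries), day 10 (P10, 2 libraries) and day 28 (P28, 3 libraries), 7 in all, with no treatment or altered allele named for any group. Whole retinas were dissociated into cells before the assay, so each library mixes all retinal cell types, and fewer cells of a type cannot be told apart from less of the mark per cell. The labels do not say whether the libraries of an age came from separate animals, so the p-values below measure the spread between libraries only.

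The eye field is the patch of anterior neural plate that becomes the eye, and Rax, Pax6, Six3, Six6 and Lhx2 are homeobox genes of the network that sets it up. The same factors, with Sox2 and the TALE homeobox genes Meis1 and Meis2, later keep retinal progenitors multipotent and dividing, and several stay on in mature cells, such as Pax6 in amacrine and ganglion cells, Sox2 and Lhx2 in Mueller glia and Rax in photoreceptors and Mueller glia. H3K18La is a mark made from lactate that is found at active promoters and enhancers. It was measured by CUT&Tag, in which an antibody to the mark directs a tethered enzyme to cut or tag the DNA nearby, and values are given in RPKM, read numbers divided by the length of the peak and by a library size the authors had normalised.

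Promoter sequences were read for the genes with an entry in the RefSeq promoter table (GRCm38.p6, from 250 bases before to 50 after a start site), which covered 8 of the 9 genes, without Rax, in 10 windows. Of these windows, 7 overlapped a peak of their own gene. The Sox2 window lay 242 bases from the Sox2 peak, and the Pax6 windows lay 422 and 12132 bases from the nearest Pax6 peak. The windows of 4 genes are shown because their peaks carry the values described below, Six3 (chr17:85620584-85620883, plus strand) highest at P10, Six6 (chr12:72939632-72939931, plus strand) and Meis2 (chr2:116064570-116064869, minus strand) higher at P28, and Sox11 (chr12:27342669-27342968, minus strand) with its highest P28 library below both P4 libraries. The last line shows the middle 300 bases of Meis1 peak 13 (chr11:18961796-18962095, plus strand of the genome), an intronic peak with the largest rise of any Meis1 peak. Capitals mark CG dinucleotides, and each sequence reads 5′ to 3′.
Six3 promoter: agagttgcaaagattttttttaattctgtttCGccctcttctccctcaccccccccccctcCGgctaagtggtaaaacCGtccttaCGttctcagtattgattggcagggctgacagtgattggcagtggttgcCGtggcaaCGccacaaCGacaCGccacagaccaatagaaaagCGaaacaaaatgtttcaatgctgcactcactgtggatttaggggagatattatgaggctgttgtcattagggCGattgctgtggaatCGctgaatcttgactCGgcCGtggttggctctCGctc
Six6 promoter: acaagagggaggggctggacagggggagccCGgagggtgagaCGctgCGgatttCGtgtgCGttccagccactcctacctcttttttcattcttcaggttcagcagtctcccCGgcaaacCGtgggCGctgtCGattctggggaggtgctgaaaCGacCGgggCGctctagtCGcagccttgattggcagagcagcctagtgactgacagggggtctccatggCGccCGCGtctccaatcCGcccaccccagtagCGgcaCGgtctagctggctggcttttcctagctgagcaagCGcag
Meis2 promoter: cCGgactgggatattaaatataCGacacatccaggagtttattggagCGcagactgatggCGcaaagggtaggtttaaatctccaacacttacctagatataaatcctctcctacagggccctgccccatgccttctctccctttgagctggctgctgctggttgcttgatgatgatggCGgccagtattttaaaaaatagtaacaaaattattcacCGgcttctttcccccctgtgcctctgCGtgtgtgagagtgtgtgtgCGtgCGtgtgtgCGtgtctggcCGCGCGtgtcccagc
Sox11 promoter: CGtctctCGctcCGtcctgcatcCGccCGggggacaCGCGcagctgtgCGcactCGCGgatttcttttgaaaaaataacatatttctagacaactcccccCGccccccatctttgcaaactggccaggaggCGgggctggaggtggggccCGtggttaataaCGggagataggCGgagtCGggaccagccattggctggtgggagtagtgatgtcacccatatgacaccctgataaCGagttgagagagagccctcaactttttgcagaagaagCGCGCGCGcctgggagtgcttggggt
Meis1 peak 13, middle: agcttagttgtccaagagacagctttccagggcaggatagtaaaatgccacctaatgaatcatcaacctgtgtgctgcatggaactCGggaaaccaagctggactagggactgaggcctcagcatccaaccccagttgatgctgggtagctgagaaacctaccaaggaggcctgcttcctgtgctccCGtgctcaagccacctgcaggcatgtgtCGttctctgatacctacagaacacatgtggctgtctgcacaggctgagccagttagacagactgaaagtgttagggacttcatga

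The promoter windows held 13 CG dinucleotides in Meis2, 14 in Six3, 20 in Six6 and 21 in Sox11, against a median of 7 over 32851 promoter windows of the same length, of which 62.1%, 63.7%, 73.5% and 75.2% had fewer. The 10 windows ranged from 13 to 34, the highest being the upstream Lhx2 window, while the 300 bases within Meis1 held 3. A GC box (GGGCGG, either strand, each match also holding a CG dinucleotide) was found in 4 of the 10 windows, those of Six6, Sox2, Sox11 and the upstream Lhx2 start, and in 35.7% of all windows. The MEIS core TGACAG, on either strand, was found in 4 windows, those of Six3, Six6, Sox2 and the downstream Pax6 start, and in 19.2% of all. The homeodomain core TAATTA, which reads the same on both strands, was in 0 of the 10 windows and in 5.29% of all. Over whole peaks, the 11 promoter peaks of these genes had a median of 6.12 CG dinucleotides per 100 bases against 4.90 over 17144 promoter peaks, and their 36 intronic peaks had 1.185 against 1.045. Among the promoter peaks the density was lowest at Meis1 peak 22 (3.60 per 100 bases) and highest at Sox11 (10.7) and Sox2 (10.5).

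Depth differed widely between libraries. Whole reads could be recovered from the RPKM values, and reads in peaks ran from 199970 in P10 replicate 1 to 8274373 in P28 replicate 2. Reads in peaks made up 16.3% and 17.6% of the effective library size at P4, 36.1% and 52.1% at P10 and 42.4% to 57.1% at P28, a share that moved with age, and its part in the results was not tested beyond the rescaling given below. Over a peak of 1 kb, 3 reads amounted to 5.42 RPKM in P10 replicate 1 and to 0.184 RPKM in P28 replicate 2. At P4, 45 of the 83 peaks had 3 reads or fewer in each library, as had 41 at P10 and 7 at P28. The peak list joins peaks called within each age, so a peak that entered it through 1 age only would tend to be lower at the others, and the table does not give the age at which a peak was called. The labels place every library in batch 1 apart from P28 replicate 1, and without it 3 loci were still called higher at P28 than at P4.

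Pooled over all peaks of a gene, H3K18La as deposited was higher at P28 than at P4 at Rax, Meis1 and Six6, and the Six6 call was lost with libraries rescaled to reads in peaks. A locus was called where limma on log2(RPKM + 1), with Benjamini-Hochberg adjustment over all 25420 loci, gave an adjusted p under 0.01. By this rule 3 of the 9 loci were higher at P28 than at P4 and 0 lower, while 33.7% of all loci were called higher and 7.06% lower. With reads in peaks, 2 loci were higher (Rax and Meis1) and 3 lower (Pax6, Sox2 and Sox11), beside 11.4% and 25.7% of all loci. The median change of the 9 loci as deposited was 0.49 on the log2 scale and that of all loci 0.76. Between P4 and P10, 4 of the 9 loci rose, Rax, Six6, Meis1 and Six3, and 0 fell, against 16.5% of all loci called higher and 8.01% lower, with medians of 0.45 and 0.23. With libraries rescaled to reads in peaks, the same comparison gave 2 higher loci, Rax (1.49) and Six6 (0.67), and 3 lower, Pax6 (-1.15), Sox2 (-1.87) and Sox11 (-1.34), beside 6.24% and 23.9% of all loci, while Meis1 (0.34, adjusted p = 0.10) and Six3 (0.088, adjusted p = 0.70) were not called. Between P10 and P28, limma called 0 of the 9 in either direction, and voom on recovered reads also called 0. An unadjusted p under 0.05 by limma was found at 1 of the 9 and at 9890 of all 25420 loci. Of all loci, limma called 4.2% higher and 0.677% lower in that comparison. The P10 count changed with single libraries left out, with 1 locus called without P4 replicate 1, 2 without P4 replicate 2 and 2 without P28 replicate 2, where 8.44%, 8.71% and 16.4% of all loci were called in either direction.

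**Figure D1:**
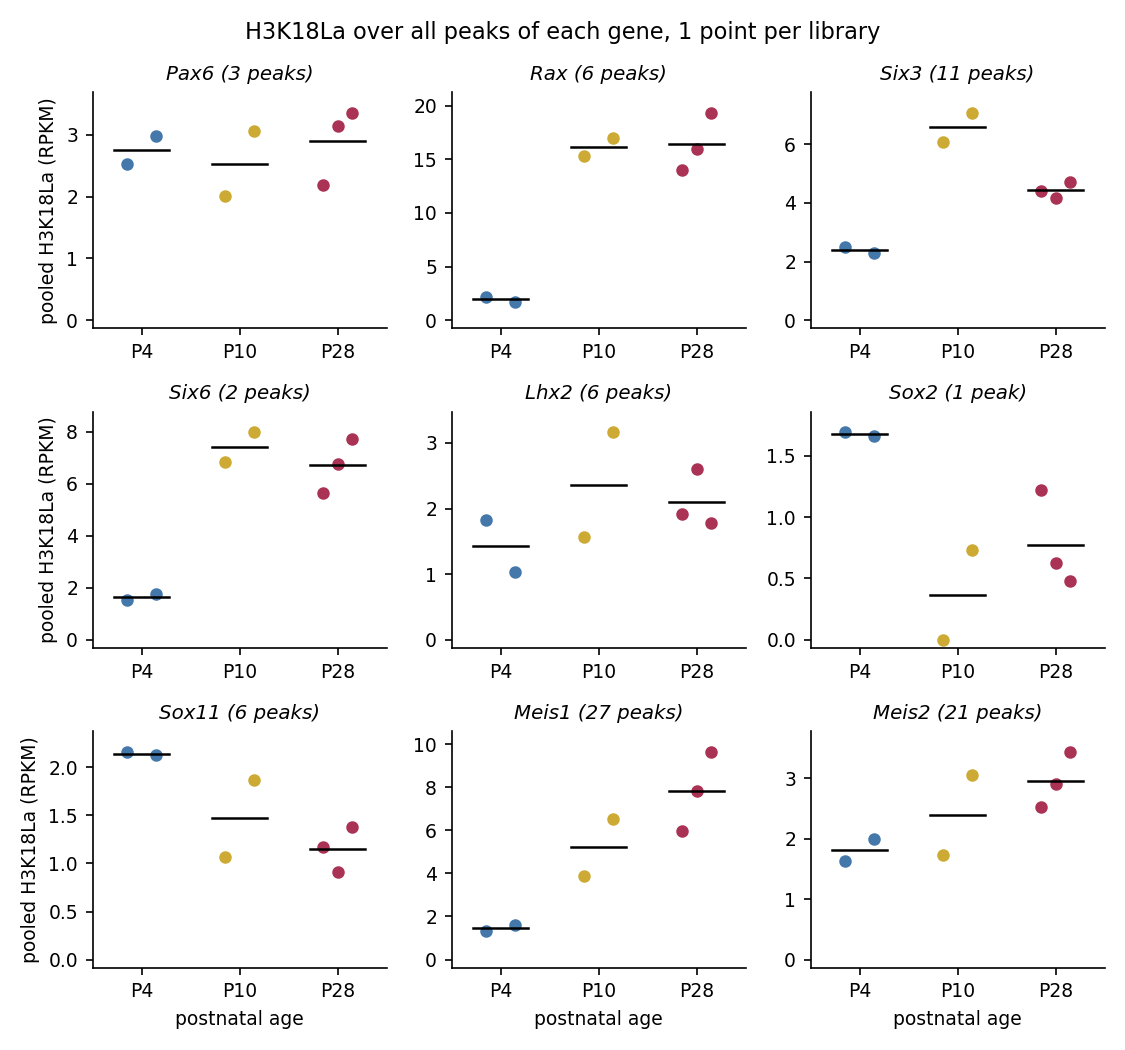
Pooled H3K18La in RPKM (vertical axis, each panel with its own scale from 0) over all peaks of each of the 9 genes, by postnatal age, with 1 point per library and a bar at the mean. Rax, Six6 and Meis1 lie higher in every P10 and P28 library than at P4, Six3 is highest at P10, and Sox2 and Sox11 are highest at P4.

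Rax, a paired-type homeobox gene needed for the eye to form at all and later a regulator of photoreceptor genes, held the highest level of the 9 from P10 on. Its 6 peaks together (5901 bases) gave 2.16 and 1.72 RPKM at P4, 15.3 and 17.0 at P10, and 14.0, 15.9 and 19.3 at P28. The P4 libraries were far below all others, and those of P10 and P28 overlapped. The log2 change from P4 to P28 was 2.56 (SE 0.22, adjusted p = 8.76e-05), and the ratio of pooled reads was 8.34 (95% counting interval 6.22 to 11.5). From P4 to P10 the change was 2.55 (SE 0.24, adjusted p = 0.000437). The promoter peak of Rax (peak 3, chr18:65937927-65940417, 2491 bases) held 921 of the 1530 Rax reads in P28 replicate 2. Its level was 3.47 and 2.16 RPKM at P4, 30.4 and 27.5 at P10, and 21, 22.7 and 27.6 at P28. It was the peak with the largest rise from P4 to P10 among the 83, at 3.00 on the log2 scale (SE 0.30, adjusted p = 0.00044).

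The peak annotated to the Rax 3′ UTR (peak 2, chr18:65934956-65935526) gave 2.39 and 1.05 RPKM at P4, 3.16 and 6.90 at P10, and 21.1, 20.8 and 26.9 at P28, the largest rise of any of the 83 peaks (log2 change 3.18, SE 0.37, adjusted p = 0.0003). This peak rested on 3 and 1 reads at P4 and on 1 and 5 at P10. Its change from P10 to P28 was 2.05 (SE 0.37, adjusted p = 0.013), which misses the threshold. The distal peak 1.16 kb upstream (peak 4) rose with the promoter, from 3.32 and 2.91 RPKM at P4 to 17.6 and 25.0 at P10, with 14.7, 17.7 and 19.8 at P28. The distal peak 6.44 kb upstream (peak 5) rose by P28 (log2 change 2.36, adjusted p = 0.0015). In all, 4 of the 6 Rax peaks were called higher at P28 and 0 lower, and the intronic peak 1 and the distal peak 6 missed the threshold (adjusted p = 0.031 and 0.040). At P4, 5 of the 6 peaks, all but the promoter, had 3 reads or fewer in each library. These may be in the list through a later age alone, which would fix the direction.

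Six3 and Six6, related sine oculis-type homeobox factors of progenitor growth and anterior fate, were both called higher at P10 than at P4 as deposited, a call that Six3 lost with reads in peaks (0.088, adjusted p = 0.70). Six3, over 11 peaks, gave 2.5 and 2.28 RPKM at P4, 6.08 and 7.08 at P10, and 4.42, 4.18 and 4.73 at P28. The ages did not overlap, with P28 between the other two. The rise to P10 was called (log2 change 1.16, SE 0.22, adjusted p = 0.0033), the difference from P4 at P28 was not (0.68, SE 0.20, adjusted p = 0.016), nor was the drop from P10 to P28 (-0.48, SE 0.20, adjusted p = 0.11). Both depended on the processing, since voom called the P28 to P4 difference higher (0.87, adjusted p = 0.0074) and median centring called the P10 to P28 difference lower (-0.87, adjusted p = 0.0091). The Six3 promoter peak (peak 1, chr17:85620691-85621395), which overlaps the sequence shown above, was at 1.29 and 2.54 RPKM at P4, 28.2 and 14.5 at P10, and 6.33, 6.10 and 9.06 at P28. It rose from P4 to P10 (log2 change 2.90, SE 0.41, adjusted p = 0.0013), and every P28 library lay below both P10 libraries, a difference of -1.40 that was not called (adjusted p = 0.038). Recovered reads at this peak were 2 and 3 in the P4 libraries and 11 and 13 in the P10 libraries. The other 10 Six3 peaks, on the gene body or up to 30.5 kb downstream of a start site, held 0 calls at P28 against P4 and 0 at P10 against P4.

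Six6, over its promoter peak and an exonic peak, gave 1.53 and 1.76 RPKM at P4, 6.85 and 7.97 at P10, and 5.64, 6.76 and 7.71 at P28. The P4 libraries lay below all others, and the change was called at P28 (log2 change 1.53, SE 0.21, adjusted p = 0.00042) and at P10 (1.67, SE 0.23, adjusted p = 0.001). With reads in peaks the P28 change was 0.37 and not called (adjusted p = 0.046). The promoter (peak 1, chr12:72939267-72940758) gave 0.914 and 1.2 RPKM at P4, 7.26 and 3.17 at P10, and 6.68, 6.55 and 8.80 at P28, and was called higher at P28 (log2 change 2.01, SE 0.39, adjusted p = 0.0031). It rested on 3 reads in each P4 library. The peak on exon 2 (peak 2, chr12:72940838-72941718) gave 2.58 and 2.71, then 6.15 and 16.1, then 3.87, 7.12 and 5.88, and was not called (P28 against P4, 0.83, SE 0.42, adjusted p = 0.13). The P10 replicates of both peaks were far apart, in opposite directions, and at both peaks the P10 and P28 libraries overlapped.

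Pax6, the paired and homeobox gene known as a master regulator of eye development, had 3 peaks, all inside the gene and none on a promoter. The pooled level was 2.52 and 2.98 RPKM at P4, 2.00 and 3.06 at P10, and 2.19, 3.14 and 3.36 at P28. The ages overlapped fully as deposited, and the P28 to P4 change was 0.04 (SE 0.26, adjusted p = 0.90) with a read ratio of 1.12 (95% counting interval 0.691 to 1.92). With reads in peaks this change was -1.15 and called lower (adjusted p = 0.0011), and after median centring it was -0.56 and not called. Pax6 had the highest mean level of the 9 at P4 and ranked below Meis2 at P28. The intronic peak 1 (chr2:105681077-105681465) was called lower at P10 than at P4 (adjusted p = 0.0082), with 2 and 4 reads at P4, 0 and 0 at P10, and 4, 16 and 9 at P28. Its read ratio of P10 to P4 has a counting interval of 0 to 1.81.

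Lhx2, a LIM homeobox gene needed for optic cup formation and for Mueller glia, had the lowest mean level of the 9 at P4. Over 6 peaks it gave 1.82 and 1.04 RPKM at P4, 1.57 and 3.16 at P10, and 1.92, 2.60 and 1.78 at P28. The ages overlapped, and no locus change was called (P28 against P4, 0.36, SE 0.32, adjusted p = 0.35). Its promoter peaks, at separate start sites, were at 0.75 and 1.48 RPKM (peak 2) and 3.53 and 1.85 (peak 3) at P4, and at 1.14 to 2.23 and 2.04 to 3.29 at P28, with no call. The intronic peak 5 (chr2:38365923-38366546) had 0 reads in both P4 libraries, 2 and 4 at P10, and 6, 20 and 6 at P28. This peak was called higher at P10 (adjusted p = 0.0025) and missed the threshold at P28 (adjusted p = 0.013). With 0 reads at P4, it may be in the list through a later age alone, which would fix the direction.

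The SOX genes were the members with the lowest marks at P28. Sox2, an HMG-box factor that maintains neural progenitors and stays on in Mueller glia and some amacrine cells, had a single promoter peak (chr3:34650286-34651361). It gave 1.69 and 1.66 RPKM at P4, 0 and 0.733 at P10, and 1.22, 0.628 and 0.482 at P28. Every later library lay below both at P4, and neither contrast was called as deposited (P28 against P4, -0.61, SE 0.37, adjusted p = 0.20 over all peaks). With reads in peaks the locus was called lower at P28 (-1.53, adjusted p = 0.0043) and at P10 (-1.87, adjusted p = 0.0034). Recovered reads were 4 and 3 at P4 and 5, 11 and 3 at P28, and the read ratio of P28 to P4 was 0.407 with a counting interval of 0.164 to 1.14.

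Sox11, an HMG-box factor of newborn neurons, gave 2.16 and 2.13 RPKM at P4 over 6 peaks, 1.07 and 1.87 at P10, and 1.17, 0.912 and 1.38 at P28. The P28 libraries were all below P4, and the change of -0.55 (SE 0.29) was not called as deposited (adjusted p = 0.13), while the read ratio was 0.492 (95% counting interval 0.319 to 0.781). The P28 change was called lower with reads in peaks (-1.59, adjusted p = 0.0012) and after median centring (-1.15, adjusted p = 0.0045). The promoter peak (peak 2, chr12:27342465-27343109) gave 3.52 and 3.70 RPKM at P4, 5.60 and 1.22 at P10, and 1.22, 0.572 and 1.07 at P28. This difference was the largest fall among the promoter peaks of the set and was not called (-1.25, SE 0.52, adjusted p = 0.077). Of the distal peaks, peak 5 was lower at both later ages and peak 1 at P10 by the call rule, on 1 read in each P4 library and 0 in each P10 library. With 3 reads or fewer in every library of both peaks, no fold is given, and a peak with reads almost only at P4 may be in the list through that age alone, which would fix the direction.

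Meis1, a TALE homeobox gene that holds progenitors in cycle, held the most higher peaks of the set. Over 27 peaks it gave 1.35 and 1.58 RPKM at P4, 3.87 and 6.54 at P10, and 5.97, 7.82 and 9.63 at P28. The P4 libraries lay below all others, while P10 and P28 overlapped. The change was called at P28 (log2 change 1.82, SE 0.27, adjusted p = 0.00061) and at P10 (1.30, SE 0.29, adjusted p = 0.0078), with a read ratio of P28 to P4 of 5.49 (95% counting interval 4.66 to 6.53). The P10 call was lost with reads in peaks (0.34, adjusted p = 0.10). At P28 against P4, 12 Meis1 peaks were called higher and 1 lower as deposited. With reads in peaks, 5 of all 83 peaks were called higher and 8 lower, beside 7.3% and 15.6% of all peaks. At most 5 of the 12 Meis1 calls were therefore kept under that scaling.

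Of the 12 higher Meis1 peaks, 9 lay in 1 intronic stretch. The limits of this stretch were not set in advance, so the count only describes these peaks. Among all intronic peaks, 8880 of 45481 were called higher. The pooled level of the 10 intronic peaks from 10.6 to 60.2 kb downstream of a start site was 1.06 and 1.75 RPKM at P4. It was 5.81 and 10.4 at P10, and 8.75, 11.3 and 13.9 at P28. As deposited 9 of the 10 were called higher, and at most 5 of these 9 calls were kept with reads in peaks. The 2 promoter peaks together gave 2.32 and 1.41 RPKM at P4, 4.96 and 5.57 at P10, and 6.18, 7.77 and 11 at P28, and neither was called (adjusted p = 0.023 for peak 22 and 0.012 for peak 23). At P4 the mean of the 10 intronic peaks was 1.41 RPKM and that of the promoter peaks 1.86, and at P28 the means were 11.3 and 8.31, with the ranges overlapping at both ages. The largest rise was at peak 13 (chr11:18961482-18962409, intron 7), whose middle is shown above, with 0.49 and 2.57 RPKM at P4, 9.73 and 14.4 at P10, and 13.6, 13.4 and 17.5 at P28 (log2 change 2.77, SE 0.40, adjusted p = 0.00072). Peaks 12 and 15 in the same intron each changed by 2.63 (adjusted p = 0.0013 and 0.0011). Reads at P4 were 1 and 4 at peak 13, 3 and 0 at peak 12, and 3 and 1 at peak 15. Of the 27 Meis1 peaks, 17 had 3 reads or fewer in each P4 library, peaks 12 and 15 among them. Such peaks may be in the list through a later age alone, which would fix the direction. Beyond 110 kb, at the 3′ end of the gene, the 5 peaks held 0 calls and a mean of 3.54 RPKM at P28.

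The Meis1 peak with the highest mean over the 3 ages was peak 7 (chr11:18916442-18917114, intron 8), 101.9 kb from a start site, with 4.05 and 3.55 RPKM at P4, 16.1 and 11.7 at P10, and 8.58, 12.7 and 16.7 at P28. It was called higher at both later ages (adjusted p = 0.0065 at P28 and 0.0076 at P10). Of the 27 peaks, 25 had a change above 0 from P4 to P28. The 3′ UTR peak (peak 1), with the highest mean of the Meis1 peaks at P4, gave 2.95 and 9.69 RPKM at P4, 0 and 7.68 at P10, and 2.56, 4.19 and 2.8 at P28, on 2 and 5 reads at P4, and was not called (-0.66, adjusted p = 0.52). The peak called lower was peak 27 (chr11:19032502-19032810), 13.5 kb upstream, with 2 and 1 reads at P4, 0 and 0 at P10, and 0, 4 and 0 at P28. Its read ratio of 0.200 had a counting interval of 0.0338 to 1.36, and its direction may likewise have been fixed by how peaks were listed.

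Meis2, the closest relative of Meis1, rose at its promoter peaks. The pooled level over 21 peaks was 1.63 and 1.99 RPKM at P4, 1.72 and 3.06 at P10, and 2.52, 2.90 and 3.43 at P28, a change of 0.49 (SE 0.27) that was not called (adjusted p = 0.15), although every P28 library was above both at P4. Promoter peak 20 (chr2:116062013-116063551) gave 3.25 and 3.1 RPKM at P4, 3.52 and 5.12 at P10, and 8.69, 9.58 and 12.8 at P28. Promoter peak 21 (chr2:116063994-116064789), which overlaps the sequence shown above, gave 0.571 and 3.00, then 4.54 and 6.93, then 9.23, 8.96 and 9.55. Both were called higher at P28 than at P4 (log2 change 1.43, SE 0.32, adjusted p = 0.0065, and 2.03, SE 0.42, adjusted p = 0.0044), and neither at P10. The 12 gene body peaks of Meis2 held a pooled mean of 1.66 RPKM at P4 and 2.26 at P28, with 0 calls at P28, while its intronic peak 18 was called higher at P10 and not at P28 (1.06 and 1.85 RPKM at P4, 8.39 and 6.72 at P10, 2.24, 2.29 and 2.14 at P28, adjusted p = 0.0077).

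The 7 distal peaks of Meis2, downstream of the gene, included 2 that were called lower. Their pooled level was 1.60 and 1.73 RPKM at P4, 0.748 and 0.816 at P10, and 0.652, 1.15 and 0.966 at P28, with every later library below both at P4. Peak 3 (chr2:115822178-115823189) was called lower at P28, with 2 and 7 reads at P4, 0 and 0 at P10, and 0, 2 and 1 at P28, a read ratio of 0.0499 (95% counting interval 0.0087 to 0.200). Peak 2 was called lower at both later ages on 2 and 1 reads at P4, which is too few for a fold. Both had few or no reads after P4, so the listing of peaks by age may have fixed these calls.

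**Figure D2:**
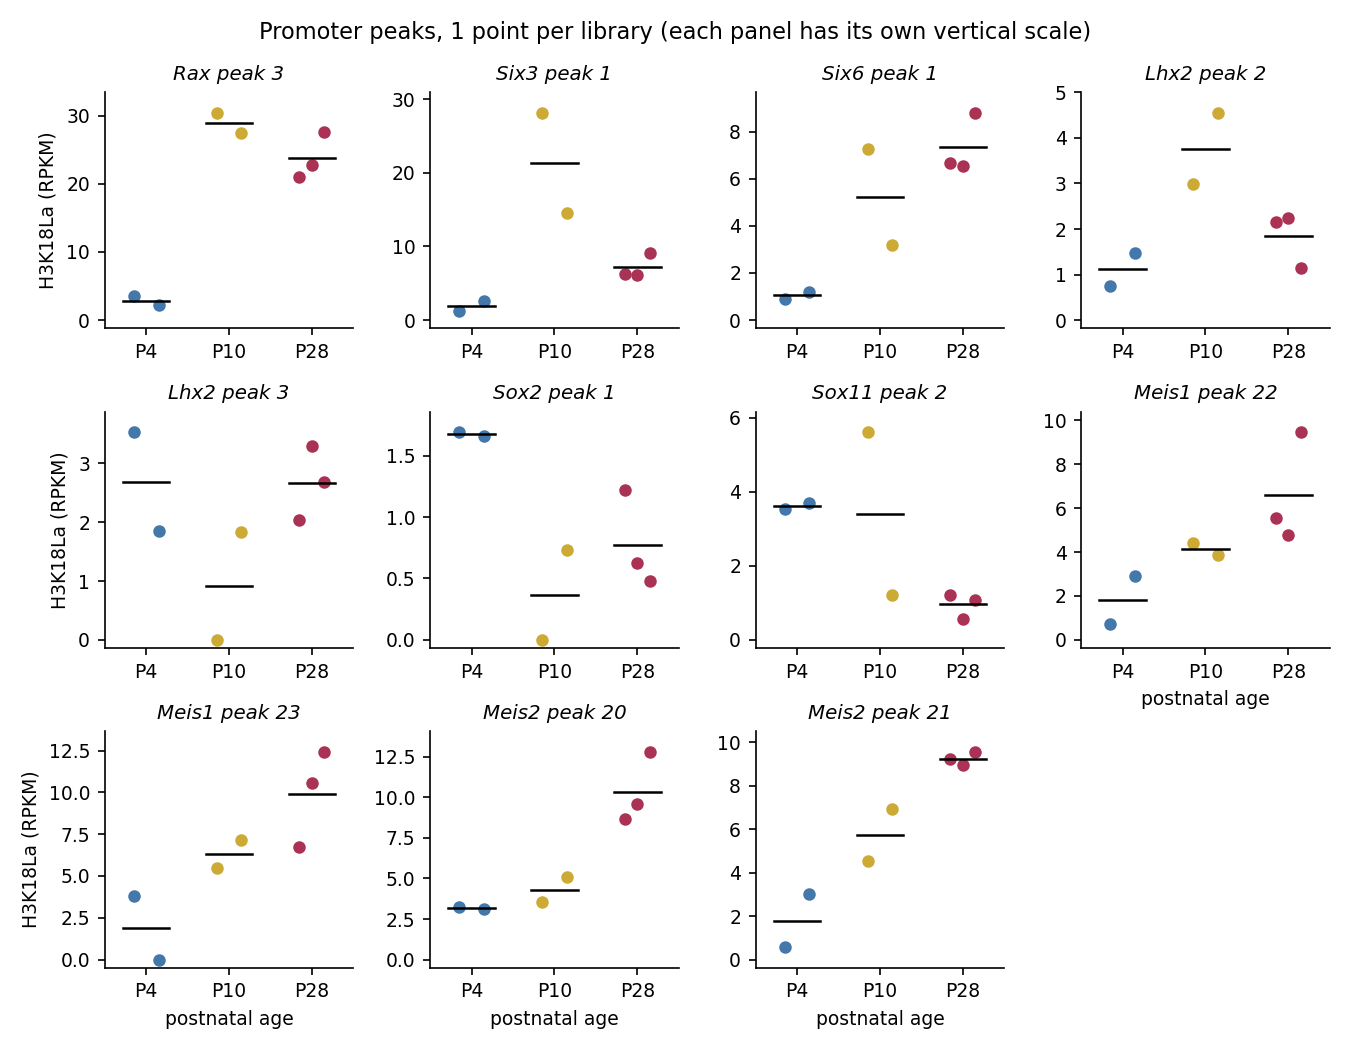
H3K18La in RPKM (vertical axis, each panel with its own scale) at the 11 promoter peaks of the set, by postnatal age, with 1 point per library and a bar at the mean. The Rax, Six6 and both Meis2 peaks were called higher at P28 than at P4, the Rax and Six3 peaks were called higher at P10, and the Sox2 and Sox11 peaks have their P28 points below those of P4.

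Counted by peak, 19 of the 83 were called higher at P28 than at P4 and 4 lower, beside 18.9% and 4.21% of all 108253 peaks. The share of these genes' peaks called higher was 22.9% and that called lower 4.82%, close to the background. At P10 against P4, 9 were higher and 5 lower, beside 11.4% and 7.34% of all peaks, and 4 were higher and 11 lower with libraries rescaled to reads in peaks, beside 4.38% and 16.1% of all peaks. By voom 14 were higher and 0 lower at P10, beside 14.5% and 0.0924% of all peaks, and 1 of 52 was lower when peaks with a mean RPKM below the median of all peaks were left out, beside 0.309%. Between P10 and P28 limma called 0 of the 83, beside 0.00185% of all peaks called in either direction. An unadjusted p under 0.05 by limma was found at 15 of the 83 and at 35202 of all 108253 peaks. Voom on recovered reads called 3 of the 83 lower, beside 6.09% of all peaks. The P28 count of 23 calls fell to 6 without P4 replicate 1, 7 without P4 replicate 2, 14 without P28 replicate 1, 11 without P28 replicate 2 and 8 without P28 replicate 3, and was 40 without either P10 library. The share of all peaks called moved too, from 23.1% to 7.18%, 7.66%, 13.7%, 10.6% and 10.5% in the same order, and to 39% and 39.2% without P10 replicates 1 and 2. The P10 count of 14 was 4 and 3 without the P4 libraries, 7 without P28 replicate 2 and 9 without P28 replicate 3, and between P10 and P28 there were 1 and 13 calls without P10 replicates 1 and 2. Of all peaks, 5.06%, 5.05%, 8.03% and 10.3% were called in those P10 fits, and 1.02% and 15.2% between P10 and P28. With libraries rescaled to reads in peaks, P28 against P4 gave 5 higher and 8 lower peaks, beside 7.3% and 15.6% of all peaks. The median change at P28 against P4 was 0.85 on the log2 scale for the 83 peaks and 0.68 for all peaks.

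The calls were concentrated in Meis1 and Rax, which held 16 of the 19 higher peaks. Without these 2 genes, 3 of the other 50 peaks were higher at P28, at Six6 and the Meis2 promoters, and 3 were lower. Of all peaks, 18.9% were higher and 4.21% lower. The median change of the 50 was 0.36. The 2 genes were set apart because they held the most higher calls, so fewer such calls in the rest follow from that choice. By position, 4 of 11 promoter peaks were called higher and 0 lower (5374 and 143 of all 17144 promoter peaks), 11 of 36 intronic peaks higher and 0 lower (8880 and 1369 of 45481), and 3 of 27 distal peaks higher and 4 lower (4192 and 2828 of 35496). All 11 higher intronic peaks were in Meis1, and all 4 lower peaks were distal, 2 at Meis2 and 1 each at Sox11 and Meis1. With the filter on low values 0 of 52 peaks were lower, beside 0.259% of all, and with a pseudocount of 0.1 there was 1. The 19 higher peaks had a median of 0.826 CG dinucleotides per 100 bases, the 60 uncalled peaks 1.59 and the 4 lower peaks 0.696, beside 1.18 for all peaks. These medians mix peak classes, since 11 of the 19 higher peaks were intronic peaks of Meis1.

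**Figure D3:**
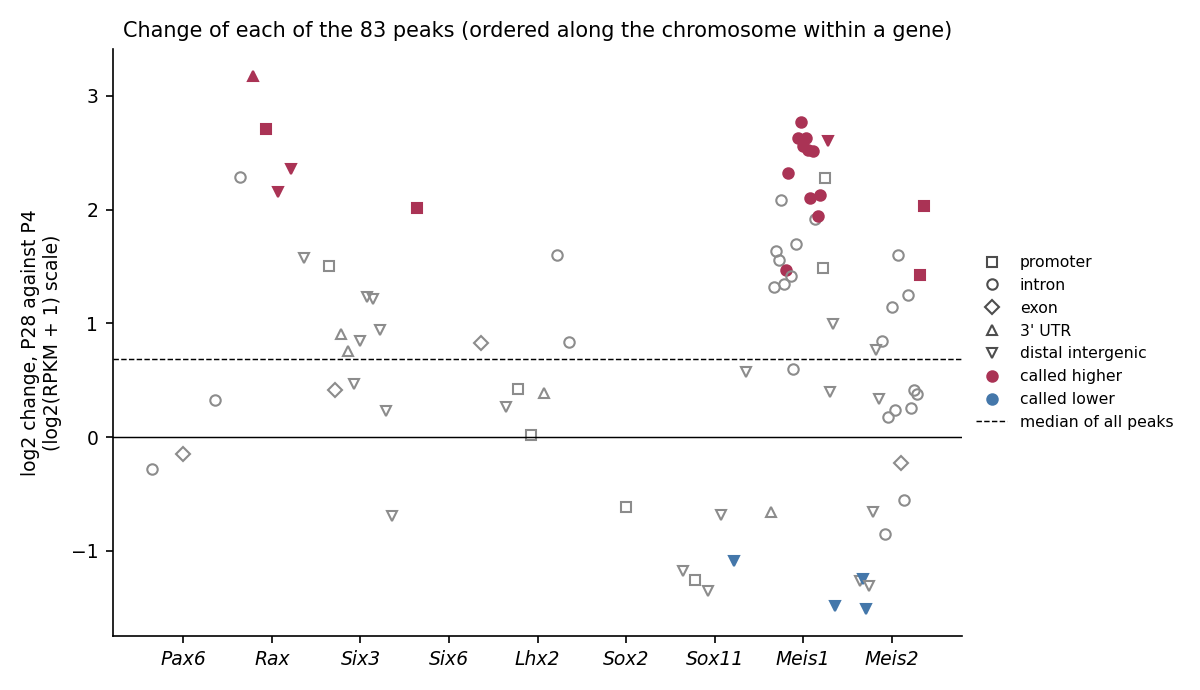
Log2 change from P4 to P28 on the log2(RPKM + 1) scale (vertical axis) for each of the 83 peaks, grouped by gene and ordered along the chromosome, with the marker shape giving the annotation and the fill giving the call. Higher calls sit in Rax, Six6, Meis1 and the Meis2 promoters, and the 4 lower calls are all distal peaks.

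The order of the loci per length turned over between P4 and P10. At P4 the mean levels ran from 2.75 RPKM at Pax6, through Six3 (2.39), Sox11 (2.14), Rax (1.94), Meis2 (1.81), Sox2 (1.68), Six6 (1.65) and Meis1 (1.46), to Lhx2 (1.43). Pax6 and Six3, and Six3 and Sox11, did not share a range of values, and all neighbours from Sox11 down overlapped. At P10 the order was Rax (16.1), Six6 (7.41), Six3 (6.58), Meis1 (5.20), Pax6 (2.53), Meis2 (2.39), Lhx2 (2.37), Sox11 (1.47) and Sox2 (0.366), with gaps between neighbours only below Rax, below Meis1 and above Sox2. At P28 it was Rax (16.4), Meis1 (7.80), Six6 (6.70), Six3 (4.45), Meis2 (2.95), Pax6 (2.89), Lhx2 (2.10), Sox11 (1.16) and Sox2 (0.776). Meis1 and Six6 overlapped there, as did Meis2, Pax6 and Lhx2, and Sox11 and Sox2. Against all loci, Rax rose from above 67.8% of loci at P4 to above 98.4% at P28, while Pax6 went from above 89.3% to above 51.3%.

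Which loci changed depended on how libraries were scaled, as the share of reads in peaks also moved with age. As deposited, the median change of all loci from P4 to P28 was 0.76, and it was -0.27 when each library was rescaled to its reads in peaks and 0.16 after median centring. Rax was called higher under all 3 scalings (2.56 as deposited, 1.3 with reads in peaks and 1.96 after median centring), as was Meis1 (1.82, 0.67 and 1.22 in the same order). Six6 was called higher as deposited and after median centring (0.94) and not with reads in peaks (0.37, adjusted p = 0.046). Sox11 was called lower with reads in peaks (-1.59) and after median centring (-1.15), and Sox2 with reads in peaks (-1.53). Pax6 turned from 0.04 to -1.15 with reads in peaks, where it was called lower, and to -0.56 after median centring, where it was not. Six3 turned to -0.52 with reads in peaks, and Lhx2 (-0.65 and -0.24) and Meis2 (-0.63 and -0.11) turned negative under both, none of them called. Relative to the median of all loci, Rax (1.81), Meis1 (1.06) and Six6 (0.78) stood above it and the other 6 below it as deposited. Both rescalings use 1 factor or shift per library and move all loci nearly alike, so they bear little on these differences.

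**Figure D4:**
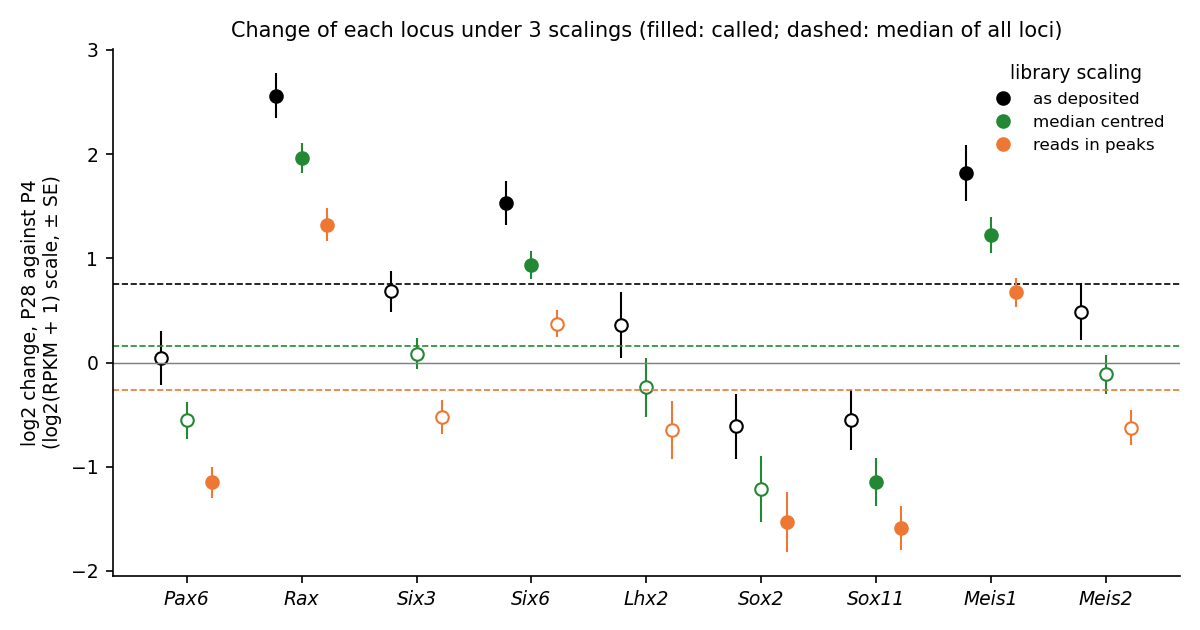
Log2 change from P4 to P28 (vertical axis, log2(RPKM + 1) scale, bars are the SE) for each of the 9 loci under 3 scalings of the libraries, with filled points for called loci and dashed lines at the median of all loci under each scaling. Rax and Meis1 are called higher under all 3, and the sign of Pax6, Six3, Lhx2 and Meis2 changes.

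Other genes of the eye field and progenitor network were taken as a list of 37 partners and related factors, of which 33 had a peak. At P28 against P4, 15 of the 33 loci were called higher and 1 lower, with a median of 0.67 beside 0.76 for all loci. The largest rises were at Pbx3, a TALE cofactor of MEIS proteins (1.0 ± 0.132 RPKM, SD, n = 2, at P4 and 7.31 ± 1.35, n = 3, at P28), and Pax2, a factor of the optic stalk (1.07 ± 0.314 and 7.52 ± 1.33). The fall was at Sfrp2, a secreted Wnt modulator (4.58 ± 0.878 and 1.3 ± 0.291, adjusted p = 0.0075). The P28 calls were 45.5% higher and 3.03% lower of the list, beside 33.7% and 7.06% of all loci. At P10, 5 of the 33 (15.2%) were higher and 1 (3.03%) lower, beside 16.5% and 8.01%.

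Markers of the cell types in these retinas moved as well, and their part in the members' changes was not tested. Beside the lists below, 33.7% of all loci were called higher at P28 than at P4 and 7.06% lower as deposited, with a median of 0.76. The lists were taken as deposited only, and with reads in peaks the median of all loci was -0.27. Of 13 photoreceptor fate factors, 11 loci were called higher at P28 and 0 lower (median 2.12), led by Otx2 and Casz1, and of 9 rod genes all 9 were higher (median 2.30), led by Gnat1 and Prph2. No rod gene with a peak was at 0 in any library, and Rom1 had no peak. The summed rod level was 9.75 to 12 RPKM at P4, 73.6 to 73.9 at P10 and 77.1 to 119 at P28, so the rod genes with a peak were marked in these retinas. Of 19 amacrine, horizontal and ganglion cell genes, 3 were higher, led by Slc6a9 and Pou4f3, and 1, Onecut1, was lower (Lhx1 also rose and was at 0 in every P4 and P10 library, and Tfap2a, Ptf1a and Nefl had no peak; median -0.09, summed level 37.4 to 40.3 RPKM at P4 and 39.7 to 46.6 at P28). Of 8 Mueller glia genes, Glul was higher and Abca8a lower (median 0.43, 15.6 to 18 RPKM at P4 and 25.0 to 33.4 at P28). Of 4 pigment epithelium genes, 0 were called either way (Pmel and Mlana had no peak; median 0.27, 4.73 to 6.01 and 5.13 to 12 RPKM), and of 7 microglia and vessel genes Cx3cr1 was higher and Tek lower (median -0.16, 12.8 to 15.7 and 10.02 to 13.5 RPKM).

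The protein-coding genes outside the set whose pooled log2 level over the 7 libraries was most like the mean of the 9 members were Hspa12a, A4galt, Prss12, Rassf3 and Lpin1, with Pearson r from 0.994 to 0.996. The libraries share depth and scaling, and 34.8% of the 5083 candidate genes had an r above 0.9. Hspa12a gave 2.68 and 2.58 RPKM at P4, 5.25 and 9.44 at P10, and 5.89, 7.52 and 8.76 at P28, the same order of libraries as the members' mean, in which P10 replicate 2 was the highest.

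Antisense or overlapping transcripts took some peaks near the members, since each peak is assigned to 1 gene and CUT&Tag reads carry no strand of transcription. Sox2ot, the long transcript that spans Sox2, held 16 peaks, with 0 called higher at P28 against P4, beside 18.9% of all peaks. Of the 16, 2 were called lower at P28 against P4 and 4 at P10 against P4, beside 4.21% and 7.34% of all peaks. The 4 lower at P10, which include the 2 lower at P28, were at 0 RPKM in both P10 libraries. The listing of peaks by age may have fixed these calls. Six3os1, which starts beside Six3, held 2, and its promoter peak (chr17:85617775-85618456) was highest at P10 as well, with 4.0 and 4.37 RPKM at P4, 15.9 and 17.3 at P10, and 4.23, 10.1 and 8.36 at P28 (P10 against P4, log2 change 1.76, adjusted p = 0.0073). Pax6os1 held 4 peaks with 0 calls in the same comparisons. These 22 peaks are not among the 83. Conversely, the promoter peaks assigned to Rax, Six3, Six6 and Sox2 also overlap Raxos1, Gm28528, 4930447C04Rik and Sox2ot in the annotation, and their signal cannot be divided between the 2 genes.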

How the data were processed

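H3K18La was profiled by CUT&Tag in dissociated C57Bl/6J retinas, in 7 libraries grouped by the age in their labels. The authors processed reads with nf-core/cutandrun (3.1) against GRCm38, kept MACS peaks with a −log10 q above 6 in at least 2 replicates of an age, merged them over the ages, annotated them with ChIPseeker (1.34.1, Ensembl 102, promoters from 1000 bases before to 500 after a start) and deposited RPKM per peak, scaled with csaw (1.32.0) over windows of 10000 bases and edgeR (3.40.2). Their table also holds fold changes and p-values, which were not used.

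RPKM values turned out as whole reads in 100% of cases (within 0.01), with the depths given above. A locus is the pooled RPKM of a gene's peaks. The main test was limma (3.58.1, R 4.3.3) on log2(RPKM + 1) over all 7 libraries, without covariates. It was adjusted over all peaks or loci and called at an adjusted p under 0.01. Adjusted p-values are from this test unless another setting is named with them. Since RPKM are not counts, the main test stands in for the authors' count model. Log2 changes other than those by voom refer to log2(RPKM + 1), a scale on which changes of low peaks come out too small. Read ratios carry exact 95% binomial intervals that cover counting error only (scipy 1.17.1, pandas 2.3.3, Python 3.11.15). The scripts were tested on simulated data. Alternatives were another pseudocount, a filter, 2 scalings, voom on recovered reads, a threshold of 0.05, a replicate block and leaving out each library.

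The members, lists and rules were chosen with earlier results of these data known. Named peaks were each gene's promoter peak nearest a start site, its highest peak and the 5 largest called rises and falls; the other peaks described were chosen after their values were seen. From each list, the 2 largest called rises and falls were named, and the 5 genes most like the members were sought among protein-coding genes with at least 20 reads at P4.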

Additional observations from a re-analysis of the deposited data

How the results depend on the processing

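Of the 83 peaks, 23 were called at P28 against P4, and this count was 14 with a pseudocount of 0.1 (14.2% of all peaks called), 13 with libraries rescaled to reads in peaks (22.9%), 38 by voom (41.5%), 14 with the replicate block (14.1%) and 38 at a threshold of 0.05 (42%), with a range of 6 to 40 when each library was left out. At P10 against P4 the 14 calls became 8 with the smaller pseudocount (13.8%) and 31 at the threshold of 0.05 (35%), with a range of 3 to 17. Between P10 and P28 the count of 0 became 1 after median centring (2.17%), 3 by voom (8.26%) and 7 at 0.05 (13.4%), with a range of 0 to 13. The 3 loci called at P28 against P4 became 5 with reads in peaks, the 4 at P10 ranged from 1 to 4 when each library was left out, and the 0 between P10 and P28 became 1 after median centring. Signs turned at Pax6 (-1.15 with reads in peaks, -0.56 after centring, -0.045 with the block, -0.045 to 0.18 leaving out libraries), Six3 (-0.52 with reads in peaks), Lhx2 (-0.65, and -0.24 after centring), Meis2 (-0.63 and -0.11), Six6 peak 2 (-0.41), Lhx2 peak 3 (-1.15 and -0.51, and -0.32 to 0.35 leaving out libraries), Lhx2 peak 4 (-0.80 and -0.13) and Pax6 peak 1 (-0.83 to 0.27). The cause was not tested. Deviations of same-numbered replicates from their age mean were hardly correlated (r from -0.001 to 0.047). With 2 libraries at P4 and at P10, and few reads per peak, this cannot decide whether the numbers pair the libraries. Fewer libraries leave fewer degrees of freedom, and 45 of the 83 peaks at P4 and 41 at P10 hold 3 reads or fewer in each library, which limits what single peaks can show.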
